A study of Mus musculus with 11 samples.

Results

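Stress fibers are bundles of actin filaments that tense when nonmuscle or smooth muscle myosin pulls on them, and they end on the membrane at focal adhesions, where integrins hold the matrix. Mesenchymal cells spread on plastic build both structures, and smooth muscle cells and myofibroblasts of the fetal lung use many of the same proteins. The 10 genes described here encode parts of them: the tropomyosins Tpm1, Tpm2, Tpm3 and Tpm4, the myosin regulatory light chain Myl9, the cross-linkers Flna, Actn1 and Actn4, and the adhesion proteins Vcl and Zyx. They were taken by symbol from the count tables, which held all 10 among 24062 genes, and all 10 passed the filter on low counts in each comparison.

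The libraries were made from primary mesenchymal cells of mouse lungs at embryonic day 15, which had been selected by fast attachment to plastic and grown through further passages. The labels give 4 wild-type (WT) libraries, 4 with the genotype Sp3+/- and 3 with the genotype Sp3-/-. Sp3 is a zinc finger transcription factor that binds GC boxes in promoters and can activate or repress. The null allele was carried in every cell of the animal, so the cultures had lacked Sp3 throughout development, and the embryos came from matings of Sp3+/- mice. No treatment was named in the labels, and the labels do not say whether each library came from a separate embryo and culture, so that p-values measure the spread between these libraries only. Between 9849111 and 59297495 reads were counted on genes, and the smallest library was Sp3-/- 697-5.

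Sp3 itself, on chr2:72936430-72980446 of GRCm38.p6, measured 6.52, 5.92, 6.75 and 6.30 log2 CPM (counts scaled to library size, on a log2 scale) in the WT libraries 468-4, 685-2, 697-1 and 697-3. It measured 5.70, 5.98, 6.16 and 5.81 in the Sp3+/- libraries 468-3, 685-5, 685-7 and 697-4, and 4.24, 4.20 and 3.86 in the Sp3-/- libraries 685-1, 697-2 and 697-5. The 3 null libraries lay below all others, and their log2 fold change against WT was -2.30 (s.e. 0.211, adjusted p=0.00611, from the quasi-likelihood test of edgeR, as are all adjusted p-values here). In Sp3+/- against WT cells the log2 fold change of Sp3 was -0.49 (adjusted p=1, edgeR). Library values below follow this order of libraries within each genotype.

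Some library titles carry a closing number, 2 or 3, called the suffix below, whose meaning is not given in the sources used here. All 3 Sp3-/- libraries have none, and of the others only WT 468-4 and Sp3+/- 697-4 have none in the title, so genotype and suffix were nearly confounded. A fit with the suffix as a covariate is therefore given beside the results it changes. Macrophage markers moved with the suffix and the genotype: the summed level of 10 macrophage genes, of which Lyz2 was the most abundant, was 352 to 861 CPM in the 6 libraries with a suffix and 2950 to 10900 CPM in the 5 without. In Sp3-/- against WT cells 3 of the 10 macrophage genes were called higher (8 of 10 against Sp3+/-), and 3 of 6 mesothelial genes, whose sum was 2030 to 5660 CPM in Sp3-/- and 697 to 1660 CPM in WT cells. Of all 14025 genes tested against WT, 1229 were called higher. Against Sp3+/-, 25.5% of 14130 genes were called in either direction. The 10 mesenchymal markers summed to 13100 to 22000 CPM in WT, 14900 to 22300 CPM in Sp3+/- and 7080 to 19100 CPM in Sp3-/- cells, and none of them was below 1 CPM in every library of a genotype. Epithelial markers summed to 14.6 to 33.5 CPM in WT and 46.8 to 152 CPM in Sp3-/- libraries, and endothelial and erythroid markers to at most 120 and 16.1 CPM in any library. The part of these other cells in the results below was not tested, and in RNA from whole cultures fewer cells of a type and less RNA per cell cannot be told apart.

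**Figure D1:**
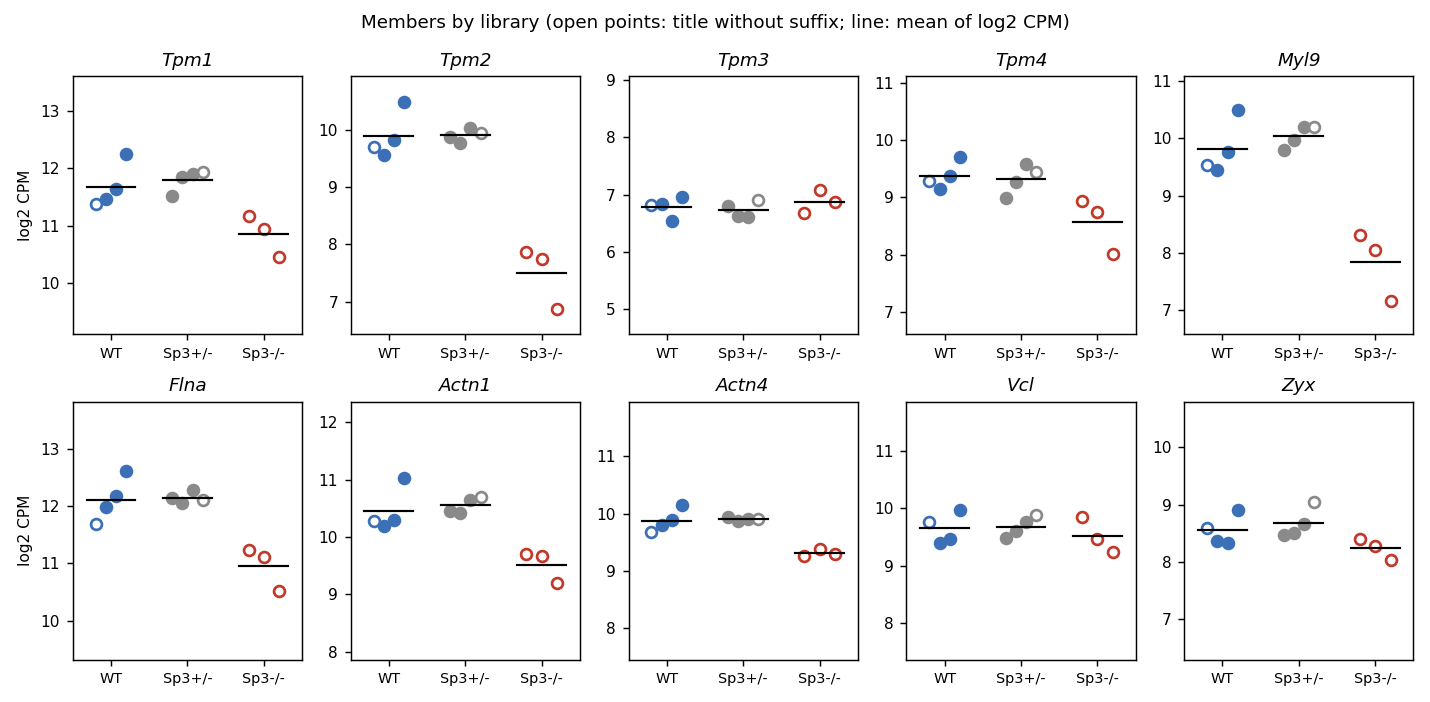
Level of each of the 10 genes in each library, as log2 CPM, for WT, Sp3+/- and Sp3-/- cells. Each point is a library, open where its title has no suffix, the line is the mean, and every panel spans the same width of the log2 scale. The Sp3-/- points lie below all WT points for 7 genes and overlap them for Tpm3, Vcl and Zyx.

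In Sp3-/- cells the tropomyosin gene Tpm2 and the myosin light chain Myl9 had the largest falls, to 19.1% and 25.7% of WT. The cross-linkers Flna, Actn1 and Actn4 also fell, to 44% to 66.9% of WT. Of the 10 genes, 5 passed the test and all 5 were lower, against 9.77% of the 14025 genes tested that were called lower and 18.5% called in either direction. The 3 Sp3-/- libraries lay below all 4 WT libraries for 7 of the 10 genes, against 16.2% of all genes tested. The median log2 fold change of the 10 genes was -0.82, and that of all genes tested was -0.0032. The 10 genes were chosen with earlier results of these data known, so these comparisons with all genes only describe them. In Sp3+/- against WT cells none of the 10 genes was called, and of all 14130 genes tested 0 were called.

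The promoters of both genes that fell most are shown beside those of Tpm3 and Vcl, the members with the log2 fold changes nearest to 0. Each is the stretch before a RefSeq start of GRCm38.p6, ended where the annotated gene begins: chr4:43523584-43523804 on the minus strand for Tpm2, chr2:156775214-156775407 on the plus strand for Myl9, chr3:90072401-90072650 on the plus strand for Tpm3, and chr14:20929148-20929382 on the plus strand for Vcl. Capitals mark GC boxes (GGGCGG, on either strand) and the CArG box, the site of serum response factor.
Tpm2: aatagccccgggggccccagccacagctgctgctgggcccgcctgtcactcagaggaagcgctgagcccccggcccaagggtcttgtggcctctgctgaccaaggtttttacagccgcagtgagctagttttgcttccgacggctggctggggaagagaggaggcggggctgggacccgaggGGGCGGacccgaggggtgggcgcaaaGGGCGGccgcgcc
Myl9: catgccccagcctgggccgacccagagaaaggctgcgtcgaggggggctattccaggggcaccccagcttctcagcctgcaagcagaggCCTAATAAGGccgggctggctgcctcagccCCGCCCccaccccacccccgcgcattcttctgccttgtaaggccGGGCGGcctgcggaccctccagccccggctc
Tpm3: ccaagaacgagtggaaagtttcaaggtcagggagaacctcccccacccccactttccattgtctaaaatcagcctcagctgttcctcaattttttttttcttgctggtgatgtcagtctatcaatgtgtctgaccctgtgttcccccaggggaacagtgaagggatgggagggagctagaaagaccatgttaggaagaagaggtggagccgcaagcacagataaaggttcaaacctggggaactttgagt
Vcl: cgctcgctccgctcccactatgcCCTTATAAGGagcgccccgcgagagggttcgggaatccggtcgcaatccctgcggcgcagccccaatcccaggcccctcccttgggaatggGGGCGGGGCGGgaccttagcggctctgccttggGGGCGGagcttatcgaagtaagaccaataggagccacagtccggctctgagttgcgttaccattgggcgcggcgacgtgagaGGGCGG

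Searched over the 250 bases before each start, all 10 members had a GC box at 1 start or more. Of 32851 promoters, counted per start and of genes expressed here or not, 32.7% had a GC box. The members were counted per gene, and the promoters were not matched to them for expression or base content. These shares, and those of the CArG box below, are therefore not like for like and show no enrichment. The Tpm2 promoter had 2 and the Myl9 promoter 3, the last of them past the stretch shown. The Tpm3 start shown had 0 and a second Tpm3 start, inside the gene, had 1. Vcl, which was not called, had 4, of which a pair overlaps, and Tpm4 had the most, with 5. A CArG box was found in 2 members, at 161 bases before the start in Myl9 (CCTAATAAGG) and 227 bases before it in Vcl (CCTTATAAGG), against 1.47% of all promoters. The members with a CArG box thus include 1 that fell and 1 that was not called. These matches describe letters in a short window and say nothing of what binds there.

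Tropomyosins are coiled coils that lie along the actin filament and set which myosins and severing proteins reach it. Tpm2, on chr4:43513726-43523583, encodes the beta-tropomyosin of smooth and slow skeletal muscle and of fibroblast stress fibers. It measured 9.70, 9.56, 9.81 and 10.48 log2 CPM in WT and 9.86, 9.77, 10.03 and 9.95 in Sp3+/- libraries. The Sp3-/- libraries measured 7.87, 7.74 and 6.87. All 3 null libraries lay far below all 8 others, and 697-5 was the lowest. In Sp3-/- against WT cells Tpm2 had a log2 fold change of -2.39 (s.e. 0.32, 95% interval -3.14 to -1.64, adjusted p=0.00923, edgeR). Tpm2 was called with each of the 7 libraries left out in turn, at log2 fold changes of -2.58 to -2.15, and also when the suffix was a covariate (-2.29, adjusted p=0.00977, edgeR).

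Tpm1, on chr9:67022590-67049672, encodes the alpha-tropomyosin of muscle and several fibroblast isoforms, which a count per gene does not separate. It measured 11.38, 11.46, 11.63 and 12.25 log2 CPM in WT, 11.52, 11.85, 11.90 and 11.94 in Sp3+/- and 11.16, 10.94 and 10.45 in Sp3-/- libraries. The null libraries lay below all others, by a smaller margin than for Tpm2. Against WT, Tpm1 had a log2 fold change of -0.85 (s.e. 0.266, 95% interval -1.47 to -0.233), above the threshold at an adjusted p of 0.0608 (edgeR). Of the 7 fits with a library left out it passed only without WT 468-4 (adjusted p=0.039, edgeR). It also passed by DESeq2 (adjusted p=0.00751), by limma-voom (0.0476) and by edgeR on all 11 libraries (0.0218). It did not pass with the suffix covariate (-0.71, adjusted p=0.158, edgeR), library size alone (0.0596) or upper quartile scaling (0.0509).

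Tpm4, on chr8:72135288-72153142, encodes a nonmuscle tropomyosin that recruits myosin II to growing stress fibers. Its levels were 9.28, 9.14, 9.36 and 9.70 log2 CPM in WT, 9.00, 9.27, 9.59 and 9.45 in Sp3+/- and 8.94, 8.74 and 8.01 in Sp3-/- libraries. The null libraries again lay below all others, 685-1 only just so. The log2 fold change against WT was -0.78 (s.e. 0.23, 95% interval -1.32 to -0.242, adjusted p=0.0535, edgeR), and of the fits with a library left out it was called only without Sp3-/- 685-1 (adjusted p=0.0423, edgeR). It was also called by DESeq2 (adjusted p=0.0078), limma-voom (0.0457), edgeR with upper quartile scaling (0.0442) and edgeR on all 11 libraries (0.0241). Tpm4 stayed above the threshold once the title suffix entered the model, at -0.74 (edgeR, adjusted p=0.119). Scaling by library size alone (0.0547) and the alternative filters on low counts (0.0582 and 0.0552, all edgeR) left Tpm4 uncalled too.

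Tpm3, on chr3:90072651-90100902, encodes the tropomyosin of slow muscle and of many short nonmuscle isoforms. Its levels were 6.81, 6.83, 6.54 and 6.96 log2 CPM in WT, 6.80, 6.63, 6.61 and 6.90 in Sp3+/- and 6.68, 7.08 and 6.87 in Sp3-/- libraries. The genotypes overlapped throughout. Tpm3 had a log2 fold change against WT of 0.09 (95% interval -0.224 to 0.409, adjusted p=0.652, edgeR), and its sign turned with the suffix covariate (-0.04) and without Sp3-/- 697-2 (-0.0085). Of the 50-base stretches in its canonical transcript, 59.3% are also found in transcripts of other genes, mostly Tpm3-rs7 and pseudogenes, against 15.8% for Tpm4 and 0 for Tpm1 and Tpm2. Reads with more than 1 alignment were counted to no gene, so the level of Tpm3 is the least certain of the 4.

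As shares of the summed tropomyosin level per kb of canonical transcript, Tpm2 made up 12.6% to 14.1% in WT, 11.7% to 14.9% in Sp3+/- and 4.25% to 5.36% in Sp3-/- libraries. The ranges of Sp3-/- and WT did not overlap, and with the length of all exons in place of the canonical transcript they were 10.2% to 12.5% and 26.8% to 29.7%. Tpm1 took 67.3% to 71.7% in WT and 73.5% to 75.5% in Sp3-/- libraries. With the length of all exons its shares were 48.8% to 52.9% and 60.2% to 63.7%. The share of Tpm3 was 1.75% to 2.71% in WT and 3.21% to 6.04% in Sp3-/- libraries, although its level did not pass the test. Tpm4 held 12.5% to 16% and 14.2% to 16.4%, which overlapped, whereas with the length of all exons its shares were 16% to 20.1% and 20.8% to 23.4%, which did not. In CPM, Tpm2 exceeded Tpm3 by 2.73 to 3.52 on the log2 scale in WT libraries, and by 1.19 in Sp3-/- 685-1, 0.66 in 697-2 and -0.0012 in 697-5.

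**Figure D2:**
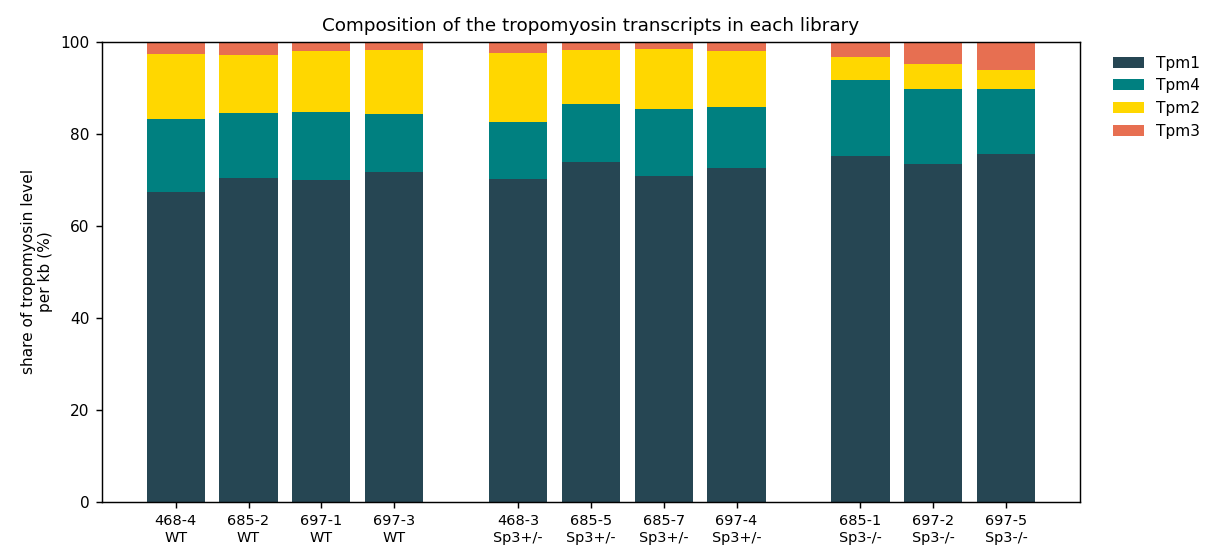
Share of each tropomyosin gene in the summed tropomyosin level per kb of canonical transcript, in percent, with a bar for each library. The Tpm2 band narrows from 12.6% to 14.1% in WT to 4.25% to 5.36% in Sp3-/- libraries, while Tpm1 remains the largest share in all 11.

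Myl9, on chr2:156775408-156781657, encodes the regulatory light chain of smooth muscle and nonmuscle myosin II, whose phosphorylation turns the motor on. It measured 9.54, 9.44, 9.76 and 10.49 log2 CPM in WT and 9.80, 9.97, 10.19 and 10.19 in Sp3+/- libraries. In Sp3-/- libraries it measured 8.32, 8.04 and 7.16. The null libraries lay more than 1 log2 unit below the lowest of the others. For Myl9 the log2 fold change against WT was -1.96 (s.e. 0.355, 95% interval -2.79 to -1.13, adjusted p=0.0163, edgeR). With the suffix covariate Myl9 remained called (-1.84, adjusted p=0.0275, edgeR), and of the 7 libraries left out in turn only Sp3-/- 697-2 ended the call (adjusted p=0.0659, edgeR).

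Flna, on chrX:74223461-74249854, encodes filamin A, which joins actin filaments at wide angles and ties them to integrins. Its levels were 11.69, 11.98, 12.17 and 12.62 log2 CPM in WT, 12.14, 12.05, 12.28 and 12.11 in Sp3+/- and 11.23, 11.11 and 10.52 in Sp3-/- libraries. The null libraries lay below all others, nearest to WT 468-4. The log2 fold change against WT was -1.18 (s.e. 0.271, adjusted p=0.0277, edgeR). It was -0.93 with the suffix covariate, no longer past the threshold (adjusted p=0.0735, edgeR), and with single libraries left out it was called without WT 468-4 and without Sp3-/- 685-1 but in none of the other 5 fits.

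Actn1 and Actn4, on chr12:80167542-80260420 and chr7:28893248-28962351, encode the nonmuscle alpha-actinins, which hold filaments of a bundle side by side and bind vinculin and zyxin. Actn1 measured 10.28, 10.19, 10.30 and 11.02 log2 CPM in WT, 10.45, 10.41, 10.65 and 10.70 in Sp3+/- and 9.70, 9.66 and 9.19 in Sp3-/- libraries. Its null libraries were all lower than any other, and WT 697-3 stood above the rest. Actn1 had a log2 fold change of -0.96 (s.e. 0.241, adjusted p=0.035, edgeR), to 51.4% of WT. Actn4 measured 9.68, 9.81, 9.89 and 10.15 log2 CPM in WT, 9.95, 9.87, 9.91 and 9.91 in Sp3+/- and 9.25, 9.39 and 9.29 in Sp3-/- libraries. It had the smallest spread of the 10 genes within Sp3+/- and within Sp3-/-, with SDs of 0.034 and 0.071 log2 CPM. Actn4 had a log2 fold change of -0.58 (s.e. 0.138, adjusted p=0.0305, edgeR), to 66.9% of WT. With the suffix covariate neither passed (Actn1 -0.93, adjusted p=0.0745, and Actn4 -0.49, adjusted p=0.0622, edgeR), and with single libraries left out each was called without WT 468-4 alone. Of their summed level per kb, Actn1 made up 45.7% to 54.1% in WT and 37.5% to 46.7% in Sp3-/- libraries, which overlapped.

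Vcl, on chr14:20929383-21033676, encodes vinculin, which reinforces the link between talin and actin when an adhesion is pulled. It measured 9.75, 9.39, 9.47 and 9.98 log2 CPM in WT, 9.48, 9.60, 9.76 and 9.88 in Sp3+/- and 9.85, 9.47 and 9.24 in Sp3-/- libraries. The genotypes overlapped, and Sp3-/- 685-1 lay above most libraries. The log2 fold change against WT was -0.13 (s.e. 0.191, 95% interval -0.58 to 0.311, adjusted p=0.64, edgeR). Of the 50-base stretches in its canonical transcript, 37.9% also occur in transcripts annotated to Ap3m1, its neighbor, and reads falling there may have been counted to neither gene. For Myl9, Flna, Actn1, Actn4 and Zyx the share found in other genes was 0 to 15.2%.

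Zyx, on chr6:42349511-42360213, encodes zyxin, a LIM protein that moves onto stressed filaments and brings in factors that repair them. Its levels were 8.59, 8.37, 8.34 and 8.92 log2 CPM in WT, 8.48, 8.51, 8.66 and 9.05 in Sp3+/- and 8.41, 8.28 and 8.04 in Sp3-/- libraries. The null libraries were below all Sp3+/- libraries and overlapped WT. The log2 fold change against WT was -0.33 (s.e. 0.163, 95% interval -0.706 to 0.0525, adjusted p=0.185, edgeR). The lower bounds of the intervals of Vcl and Zyx reach a fall as large as that of Actn4, so a change of that size in either gene was not excluded by these libraries.

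Per kb of canonical transcript, Tpm1 stood highest in WT cells at 1540±461 CPM per kb (s.d., n=4). It was followed by Myl9 at 676±246 and Flna at 452±126 CPM per kb, whose libraries overlapped. Tpm4 (310±53.5), Tpm2 (299±93.6), Actn4 (237±33.5) and Actn1 (231±68.9) came next and overlapped each other, and Tpm4, Tpm2 and Actn1 also overlapped Flna. Vcl at 148±28.1 and Zyx at 114±22.1 CPM per kb also overlapped, and Tpm3 was the lowest at 48.2±5.7 with no library reaching those of Zyx. In Sp3-/- cells Tpm1 was still the highest at 859±205 CPM per kb (s.d., n=3). Flna at 200±48.7, Tpm4 at 182±55.9, Myl9 at 175±65 and Actn4 at 159±7.91 CPM per kb overlapped each other and Vcl (136±29.4). Actn1 at 119±21.8 and Zyx at 91.3±11.6 CPM per kb overlapped as well. Tpm2, at 57.5±19 CPM per kb, lay below every library of Zyx and overlapped Tpm3 at 51.4±7.26. With the length of all exons the ranks of Tpm2 were 4 in WT and 8 in Sp3-/- cells, against 5 and 9. On that scale the lead of Tpm1 in WT cells was nearly lost. Tpm1, Myl9 and Flna then had means of 418, 408 and 407 CPM per kb, and in Sp3+/- cells Myl9 (461) stood above Tpm1 (445). Together the 10 genes took 1.17% to 1.9% of the reads on genes in WT, 1.36% to 1.55% in Sp3+/- and 0.565% to 0.866% in Sp3-/- libraries, with no overlap of the null libraries and the others.

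With 1 intact copy of Sp3 the 10 genes differed little from WT. Their log2 fold changes in Sp3+/- against WT cells lay between -0.06 (Tpm3) and 0.17 (Myl9), with a median of 0.012. In this comparison 0 of 14130 genes passed the threshold (0%), 246 had an unadjusted p below 0.05, and by every other tool and setting run the count was also 0. The libraries overlapped for all 10 genes, against 1.39% of all genes that did not overlap. The widest interval was that of Myl9, -0.424 to 0.76, and that of Tpm2 was -0.547 to 0.476, and changes within these intervals could not be detected with these libraries.

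The comparison of Sp3-/- with Sp3+/- cells used the same 3 null libraries. Of the 10 genes 7 were called lower, the 5 named above with Tpm1 and Tpm4, against 12.5% of 14130 genes called lower and 25.5% called in either direction. The log2 fold changes were -2.36 for Tpm2 (adjusted p=0.0012), -2.13 for Myl9 (0.00271), -1.17 for Flna (0.00719), -1.03 for Actn1 (0.00874) and -0.60 for Actn4 (0.00624, all edgeR). Those of Tpm1 and Tpm4 were -0.94 and -0.73 (adjusted p=0.0175 and 0.0332, edgeR). Zyx at -0.45 (adjusted p=0.0843, edgeR) did not pass, although its null libraries lay below all Sp3+/- libraries, and neither did Tpm3 and Vcl. The libraries of 8 genes did not overlap, against 17.7% of all genes with the null libraries lower. With the suffix covariate Tpm2 and Myl9 remained called (-2.28 and -2.10, adjusted p=0.0153 and 0.0229, edgeR), and the other 5 did not. In the file names Sp3+/- 697-4 also has a suffix, so every Sp3+/- library and no Sp3-/- library has one. With that suffix as the covariate no gene was called, Tpm2 and Myl9 included. Without Sp3-/- 697-2 or without 697-5 Tpm1 lost its call, and Tpm4 was called only without Sp3+/- 468-3 or Sp3-/- 685-1 when single libraries were left out.

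**Figure D3:**
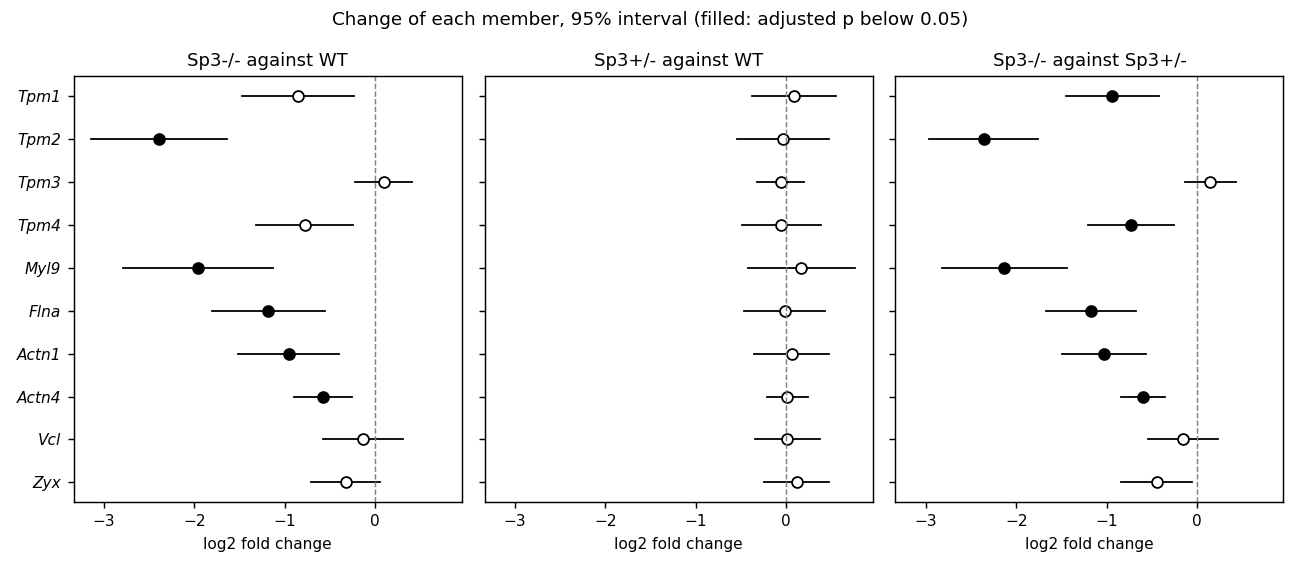
Log2 fold change of each of the 10 genes in the 3 comparisons of genotypes, with its 95% interval, filled where the adjusted p from edgeR was below 0.05. Tpm2 and Myl9 lie between -2.39 and -1.96 in both comparisons of Sp3-/- cells, which share the null libraries, and all 10 lie near 0 in Sp3+/- against WT cells.

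The count of 5 members called against WT moved with the libraries and covariates in the fit. With single libraries left out it was 6 without WT 468-4 and 4 without Sp3-/- 685-1. It was 2 without WT 685-2, 697-1 or 697-3 or without Sp3-/- 697-5, and 1, Tpm2, without Sp3-/- 697-2. With the suffix covariate Tpm2 and Myl9 were called, and with the suffix of the file name, which differs for Sp3+/- 697-4, only Tpm2 (-2.16, adjusted p=0.0368, edgeR). Beside 468-4, the suffix-free WT library, all 3 Sp3-/- libraries were lower for 8 of the 10 genes, all but Tpm3 and Vcl, and the difference of means had a median of -0.62 on the log2 scale. They were below Sp3+/- 697-4 for 9 of the 10, and neither count was set beside its share over all genes. That fit of libraries without a suffix called 0 genes of any kind. The macrophage sums of 468-4 and 697-4 were 3150 and 2950 CPM. That of Sp3-/- 685-1 was 2950 CPM, and those of Sp3-/- 697-2 and 697-5 were higher, at 10900 and 10000 CPM.

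The titles also begin with a number (468, 685 or 697) that is not explained. In 685 and 697 every WT library has the suffix 3 and every Sp3-/- library has none. Genotype and suffix therefore cannot be told apart within a number. The differences held the sign of the fit reported for most members. Within 685 the sign turned for Tpm3 (-0.155), Vcl (0.454) and Zyx (0.0429). Within 685, with a single Sp3-/- and a single WT library, 8 of the 10 genes were lower in Sp3-/-, with a median difference of -0.40 and extremes of -1.69 (Tpm2) and 0.45 (Vcl). Within 697, with 2 libraries of each, 9 of the 10 were lower, with a median of -1.19 and extremes of -2.84 (Tpm2) and 0.23 (Tpm3). WT 697-3 was the highest WT library for all 10 genes and Sp3-/- 697-5 the lowest null library for 8. Number 468 holds no Sp3-/- library. The share of all genes lower within a number was not computed, so these counts only describe the members.

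**Figure D4:**
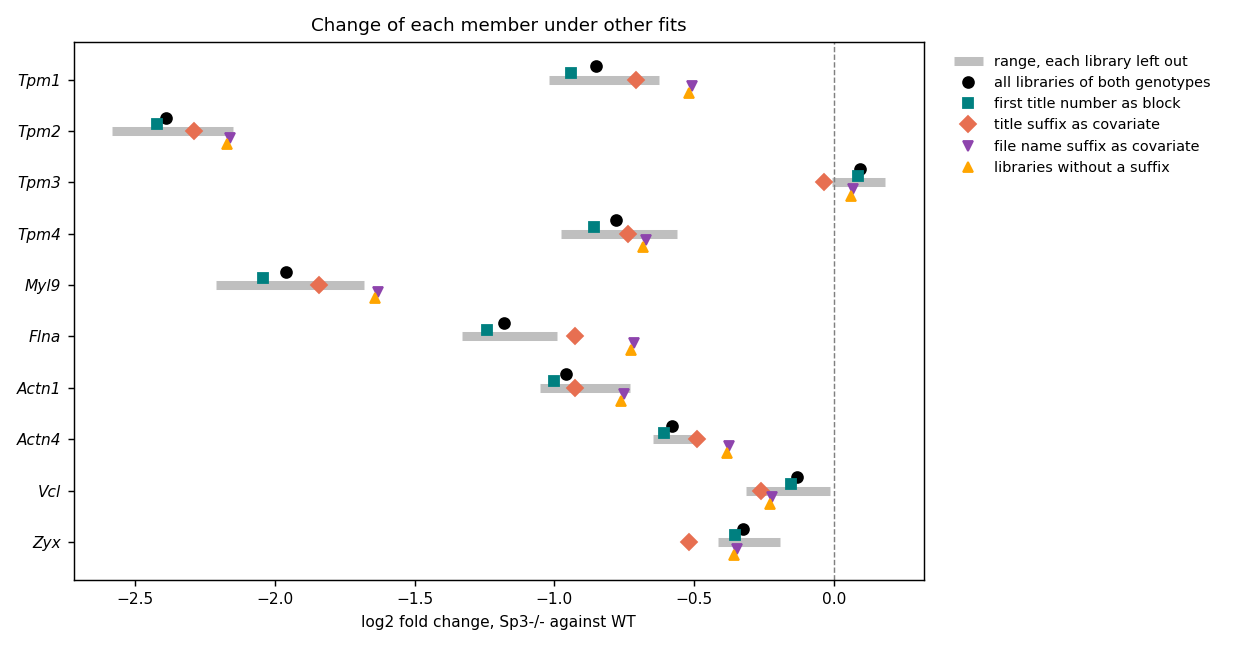
Log2 fold change of each of the 10 genes in Sp3-/- against WT cells in the fit reported, with the first title number as a block, with either suffix as a covariate and among libraries without a suffix. The grey bar spans the 7 fits with a library left out, and Tpm2 and Myl9 stay below -1.6 in all of them.

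Across the 11 libraries 7 members, Tpm1, Tpm2, Tpm4, Myl9, Flna, Actn1 and Actn4, varied together, with Pearson's r of their log2 CPM between 0.803 (Tpm4 and Actn4) and 0.989 (Tpm2 and Myl9). Zyx had r of 0.685 (Actn4) to 0.86 (Actn1) with these 7 and of 0.853 with Vcl, which had 0.366 (Actn4) to 0.723 (Tpm4) with the 7, and Tpm3 had r of -0.293 to 0.0952 with the other 9. These values are descriptions, since the libraries share the genotypes that separate them. Among 6034 genes with a mean of at least 5 log2 CPM, those whose pattern was most like the mean of the 10 members were Acta2, the smooth muscle actin (r=0.991), Csrp1, a LIM protein of actin bundles (0.984), Cnn2, a calponin (0.983), Lpp, a zyxin relative (0.982), and Tagln, an actin-binding protein of smooth muscle (0.982). They were followed by Bag2, a cochaperone (0.98), Myh11, the smooth muscle myosin heavy chain (0.974), Mcam, an adhesion molecule (0.974), Fermt2, a kindlin that activates integrins (0.973), and Ddah1, which degrades methylarginines (0.972). Acta2 measured 12.44, 12.29, 12.41 and 13.39 log2 CPM in WT and 10.94, 10.53 and 9.48 in Sp3-/- libraries.

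The other genes of these structures were read from lists of partners. These lists were chosen with earlier results of these data known, so the shares called in them are descriptions and not a test. Of 17 actin, myosin and filament-binding genes 10 were lower in Sp3-/- than in WT cells and 0 higher, with a median log2 fold change of -0.83. The share called was 58.8% in this list, against 18.5% of all genes called in either direction. The largest falls were those of smooth muscle genes, the myosin heavy chain Myh11 (-4.15, adjusted p=0.013), the actin Actg2 (-3.87, 0.0108), the calponin Cnn1 (-3.51, 0.00872) and Acta2 (-2.29, 0.0175, all edgeR). The nonmuscle partners of Myl9 and the tropomyosins moved less. Myh10, a nonmuscle myosin heavy chain, fell by 1.01 on the log2 scale (adjusted p=0.0288, edgeR), whereas Myh9 at -0.59 (0.0592) and the beta-actin gene Actb at -0.47 (0.199, edgeR) did not pass. Myl12a and Myl12b encode light chains closely alike to Myl9, with which they share the heavy chains: Myl12a fell by 0.76 (adjusted p=0.0181) and Myl12b was at 0.25 (0.264, edgeR). Of the 50-base stretches in their canonical transcripts 21.7% and 31.8% also occur in other genes, in part in each other, and the share was 74.5% for the light chain Myl6, which fell by 0.83 (adjusted p=0.0153, edgeR). For the gamma-actin gene Actg1 it was 88.7%, and its value is not given here for that reason. The 8 smooth muscle markers summed to 2970 to 9160 CPM in WT, 5150 to 7540 CPM in Sp3+/- and 1460 to 2670 CPM in Sp3-/- libraries. Of the 8, Myh11, Cnn1, Actg2 and Lmod1 were called lower in Sp3-/- than in WT cells, and Mylk at -1.52 (adjusted p=0.0922), Des at 0.12 (0.869), Smtn at 0.05 (0.915) and Synm at 0.03 (0.956, all edgeR) did not pass. Des, which had the highest mean log2 CPM of the 8, overlapped between the genotypes. Of these markers Myh11, Cnn1, Actg2 and Mylk are on the list above and Lmod1 on the next, so the lists are not separate evidence.

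Of 19 further cross-linkers and LIM proteins 7 were lower and 1 higher (42.1% called), with a median log2 fold change of -0.57. Csrp2 (-2.36, adjusted p=0.00981), the actin nucleator Lmod1 (-2.18, 0.0151), Csrp1 (-1.53, 0.0132) and Pdlim2 (-1.51, 0.0192, all edgeR) fell most, and Tmod3, which caps the pointed end of filaments coated with tropomyosin, rose by 0.57 (adjusted p=0.0147, edgeR). Flnc, the filamin of muscle, was not called at -0.15 (adjusted p=0.597, edgeR). Of 29 focal adhesion plaque genes 15 were lower and 0 higher (51.7% called), with a median of -0.78. Sorbs2, a vinculin-binding adaptor, fell by 2.09 on the log2 scale (adjusted p=0.0132), Tgfb1i1, the paxillin relative Hic-5, by 1.43 (0.017), Enah, which lengthens filaments and binds zyxin, by 1.25 (0.00764), and Nexn by 1.21 (0.0283, all edgeR). Of the complex of Ilk and parvin that links integrins to actin, Ilk at -0.79 (adjusted p=0.0345) and Parva at -0.93 (0.0286, edgeR) were called. Its other genes on the list were not, with Lims1 at 0.05 (adjusted p=0.81), Lims2 at -0.97 (0.0725), Parvb at -0.07 (0.893) and Rsu1 at -0.47 (0.0804, all edgeR). Fermt2 was called at -0.87 (adjusted p=0.0339, edgeR). The vinculin partners talin (Tln1), at -0.05 (adjusted p=0.83), and paxillin (Pxn), at -0.03 (0.855, edgeR), were not called.

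Of 12 integrin chains 3 were lower and 0 higher (25% called, against 18.5% of all genes), Itga11 (-2.93, adjusted p=0.0192) and Itga1 (-1.95, 0.0225), both receptors for collagen, and Itga8 (-2.81, 0.00744, all edgeR), a receptor for nephronectin and fibronectin. Their common partner Itgb1 was at -0.62 (adjusted p=0.0615, edgeR). Of serum response factor and its cofactors 1 of 4 was called, Myocd (-1.94, adjusted p=0.0239, edgeR), at a mean of 0.96 log2 CPM, and Srf was at -0.05 (adjusted p=0.855, edgeR). Of 24 genes of branched and turning-over actin, the Arp2/3 complex and filament-severing proteins, 3 were lower and 0 higher (12.5% called), with a median of 0.039, and they were Tmsb10 (-1.03, adjusted p=0.0286), Gsn (-0.44, 0.0303) and Cttn (-0.41, 0.0425, all edgeR). In Sp3+/- against WT cells 0 genes of these lists were called, as were 0 of all 14130 genes tested.

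The counts of these lists moved with single libraries. Without Sp3-/- 697-2 the calls were 3 of 17 for actin and myosin, 1 of 19 for cross-linkers and 1 of 29 for the plaque, and 2, 0 and 0 for integrins, serum response factor and branched actin. With the suffix covariate they were 8, 7, 6, 1, 1 and 1 in the same order. Leaving out WT 697-3 gave 6 for actin and myosin. For cross-linkers the count was 5 without WT 685-2 and 4 without Sp3-/- 697-5, and for the plaque it was 6 or 7 without WT 685-2, 697-1 or 697-3 or without Sp3-/- 697-5. The counts for serum response factor and branched actin were 0 without each of the same 4 libraries. Integrins and branched actin rose to 5 and 7 without WT 468-4. Serum response factor and its cofactors had 2 without Sp3-/- 685-1.

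**Figure D5:**
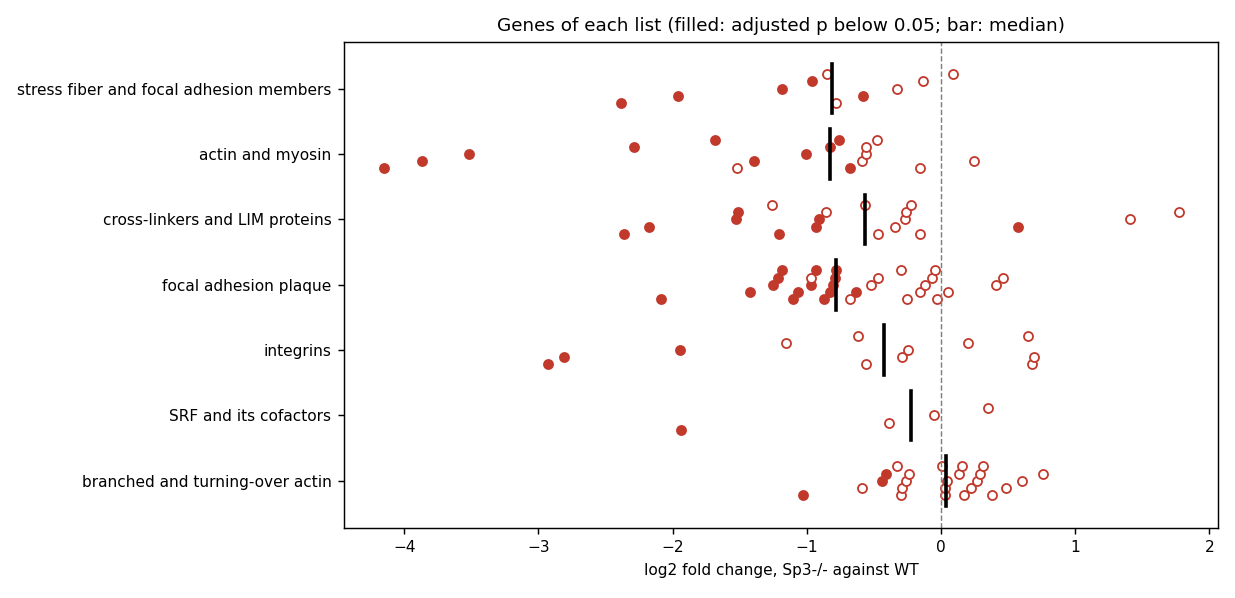
Log2 fold change in Sp3-/- against WT cells of the 10 members and of 6 lists of partner genes, filled where the adjusted p was below 0.05, with a bar at the median of each list. The median is -0.82 for the members, -0.83 for actin and myosin and -0.78 for the focal adhesion plaque, and lies near 0 for branched and turning-over actin.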

How the data were processed

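Per the labels and the study's methods, RNA with high integrity scores was made into TruSeq libraries and sequenced as single-end reads of 50 bases. The authors checked reads with FastQC 0.10.1, aligned them to mm10 with STAR 2.4.5a and deposited raw counts per gene symbol from htseq-count, with no normalization. The strand setting and the annotation version were not given in the sources used here, so antisense and overlapping genes could not be separated. The tallies of reads outside genes, 38.4% to 40.9% of each library, entered neither library sizes nor tests. No pair of libraries of the same genotype agreed within counting noise.

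Genotypes came from the labels. Tests were run with edgeR 4.0.16 in R 4.3.3 on genes above 1 CPM in 1 or more of the libraries fitted (TMM, estimateDisp, robust glmQLFit, glmQLFTest). Benjamini-Hochberg adjustment ran over every gene tested, and a gene was called at an adjusted p below 0.05. Sp3-/- against WT used these 7 libraries, and the other comparisons used all 11. Standard errors were derived from the F statistic, and 95% intervals use its degrees of freedom. Levels are log2 CPM, computed with the TMM factors of all 11 libraries and a prior count of 2, and a linear CPM uses the same factors. Lengths, and stretches of 50 bases shared between genes, came from GENCODE vM39 transcripts on GRCm39, which is not the build of the counts. Positions and promoters are RefSeq's on GRCm38.p6. They were found for all 10 members, and Python 3.11.15 searched them.

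The members and all lists of partners and markers were chosen with earlier results of these data known. Besides the members and Sp3, named genes are the at most 4 called genes of each list with the largest change, direct partners of a member, and the 10 genes most like the mean of the members. Tmod3, Myl6, Flnc, Lims1, Lims2, Parvb and Rsu1 were named after their values were seen. A further list of partners and some single genes are not reported here. Alternatives were DESeq2 1.42.0, limma 3.58.1 (voom, also with a consensus correlation for libraries sharing the first title number), library size alone or the upper quartile for TMM, every gene with a count or filterByExpr for the CPM filter, other libraries in the fit, the first title number as a block, either suffix as a covariate, suffix-free libraries alone, and each library left out. On simulated counts of 13763 genes for Sp3-/- against WT, edgeR recovered 40% of 100 genes changed 2-fold and 82% of 100 changed 4-fold, none in the wrong direction.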

Additional observations from a re-analysis of the deposited data

Results flagged for a closer look

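Among the 20 sets of 4 libraries examined, the 10 members in WT and in Sp3+/- cells, 1 held a library far from the other 3. Actn1 measured 11.02 log2 CPM in WT 697-3 and 10.19 to 10.30 in the other WT libraries. Chance alone puts about 1 such set in 20. Without WT 697-3 the log2 fold change of Actn1 in Sp3-/- against WT cells was -0.73 (adjusted p=0.051, edgeR). The smooth muscle marker sum of this library, 9160 CPM, was also the highest of the 11.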

How the results depend on the processing

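DESeq2, limma-voom and voom with a consensus correlation called 7 members in Sp3-/- against WT cells, upper quartile scaling 6, and library size alone and either filter 5. With the title suffix covariate 2 members and 1329 genes were called, with that of the file name 1 and 163, and among libraries without a suffix 0 and 0. Against 2599 genes in the fit reported, DESeq2 called 4297 and all 11 libraries 3977. Leaving out single libraries gave 1 to 6 members and 282 to 4179 genes. For Sp3-/- against Sp3+/- cells those counts were 2 and 763, 0 and 0, and 0 and 0, and 5 to 7 members and 1490 to 3706 genes. Upper quartile scaling called 1671 genes lower and 983 higher against WT, where the fit reported called 1370 and 1229, and 2171 and 1436 against Sp3+/-, where it called 1769 and 1838.

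The first title number as a replicate block gave 7 members and 3718 genes against WT, 7 and 2956 against Sp3+/-, and 8 integrins, 3 of serum response factor and its cofactors and 5 of branched actin. The labels do not explain the number. The 14 pairs of libraries of different genotype with the same number had correlations of -0.617 to 0.344, with a median of 0.0996 and 7 above 0.1. For the 26 pairs with different numbers they were -0.524 to 0.708, with a median of -0.0438 and 10 above 0.1. These ranges overlap and do not settle whether the number pairs libraries, and it was left out of the fit reported.

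Tpm3 turned to -0.036 with the title suffix and ran from -0.00847 (without Sp3-/- 697-2) to 0.182 with single libraries left out, against WT, and to -0.0377 against Sp3+/- among libraries without a suffix. In Sp3+/- against WT cells values close to 0 changed sign. Among libraries without a suffix these were Tpm2 (0.252), Tpm3 (0.0975), Tpm4 (0.173) and Flna (0.427). Tpm2 was at 0.027 and Flna at 0.0268 with limma-voom (0.0267 and 0.0266 with the consensus correlation), and Flna was at 0.0147 with the block. Tpm4 (0.0458) and Flna (0.0279) turned with the title suffix, and Actn1 (-0.0431), Actn4 (-0.0881) and Zyx (-0.000107) with that of the file name. With single libraries left out the ranges were -0.00621 to 0.308 for Tpm1, -0.139 to 0.201 for Tpm2, -0.141 to 0.065 for Tpm4, -0.134 to 0.175 for Flna, -0.023 to 0.289 for Actn1, -0.0431 to 0.106 for Actn4, -0.0655 to 0.13 for Vcl and -0.0291 to 0.248 for Zyx. The causes were not tested. The number of libraries, 3 or 4 per genotype, limits every call, and calls lost with a library left out come from fits with fewer libraries.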
